A study of Mus musculus with 32 samples.

Results

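Complement genes were followed in mouse liver after lipopolysaccharide (LPS, the endotoxin of Gram-negative bacteria), in mice that lacked or carried E2f1, a transcription factor of the cell cycle. The genes were 31 named components, regulators and receptors of the complement system, chosen by their gene name on the array. All 31 had at least 1 probe, 45 probes in all, and 30 of them were among the 19204 gene names tested. C5ar1, a receptor for the complement peptide C5a, was left out of the tests because its probe stood well above background on 2 arrays.

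There were 32 arrays, 1 per mouse. LPS had been given systemically and liver was taken 20 h later from 6 knockout mice (KO LPS 20 h) and 6 wild-type mice (WT LPS 20 h), and 6 h later from 4 knockout mice (KO LPS 6 h) and 4 wild-type mice (WT LPS 6 h). Saline had been given to 6 knockout mice (KO saline) and 6 wild-type mice (WT saline), and both saline groups are labelled 20 h, so LPS 6 h against saline also differs in the time since injection. The knockouts are labelled E2F1-/- in a B6;129 strain and the wild types E2F1+/+ in a strain written B6x126 F2, and the LPS dose, the age and sex of the mice and the deleted part of E2f1 are not given in the sources used here.

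Complement is a set of plasma proteins, most of them made by hepatocytes, that tag microbes and lyse membranes. The classical pathway starts with C1q bound to antibody, the lectin pathway with mannose-binding lectins bound to sugars, and the alternative pathway amplifies itself on C3 that is already deposited. All of them cleave C3 and then C5, after which the terminal components assemble into the membrane attack complex. In the liver C1q comes from Kupffer cells, the resident macrophages, and several complement proteins belong to the acute-phase response.

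Each level is the log2 signal of the brightest probe of a gene minus the 75th percentile of its array, so 0 is that percentile and levels of different genes cannot be compared. The percentile itself was 281 to 1144 signal units, with 20203 to 28891 spots of an array well above background. All 9 hepatocyte markers were well above background on every array, with a summed linear level of 1525 to 4742, against 0.115 to 2.48 for the markers of lung epithelium, the tissue that the extraction protocol names. A probe of E2f1 averaged -2.05 ± 1.57 (SD, n = 6) at KO LPS 20 h and -5.57 ± 0.88 (SD, n = 5, 1 value missing) at WT LPS 20 h (difference 3.52 ± 0.58 SE, adjusted p = 0.00348). It was well above background on 6 of 6 arrays at KO LPS 20 h and 2 of 5 at WT LPS 20 h, so the size of that difference is uncertain. On saline it averaged -3.23 ± 0.81 in KO and -3.35 ± 1.01 in WT (SD, n = 6 each), and since the deleted part is not given this probe is no check of the deletion.

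A few knockout arrays did not look like the group on their label. A score from 0 (the mean of WT saline) to 1 (the mean of WT LPS) was computed for every array. It used the genes called between WT LPS and WT saline at 6 h or at 20 h, complement genes among them. At the 6 h score, the array labelled KO saline replicate 1 stood at 0.885 while the remaining KO saline arrays lay between -0.005 and 0.057. The array labelled KO LPS 6 h replicate 1 had a 6 h score of 0.126 while the remaining arrays at KO LPS 6 h lay between 0.897 and 0.977. For the 20 h score, the array labelled KO LPS 20 h replicate 4 had 0.357 and the remaining KO LPS 20 h arrays 0.961 to 1.06. The first 2 of these were on the same slide. Values for the knockouts are therefore also given without the first 2 or without all 3, an alternative chosen after seeing the data. These arrays were picked by their LPS response, so p-values of LPS against saline without them can come out too low. They are given as a description only.

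The sequences upstream of the terminal genes are shown because these genes moved together. RefSeq promoters (GRCm38.p6, 250 bases before to 50 after the gene start, gene strand) were found for 22 of the 31 genes. Capitals mark matches, on either strand, to C/EBP (TTNNGNAA), STAT (TTCNNNGAA), HNF4 (CAAAGNCCA), the ISRE core, the NF-kB consensus or, with up to 2 mismatches, the HNF1 consensus. The promoters of Hc, which encodes C5, of C8a and of C9 stand beside that of C3, the component on which the pathways converge.
Hc, chr2:35061363-35061662, minus strand: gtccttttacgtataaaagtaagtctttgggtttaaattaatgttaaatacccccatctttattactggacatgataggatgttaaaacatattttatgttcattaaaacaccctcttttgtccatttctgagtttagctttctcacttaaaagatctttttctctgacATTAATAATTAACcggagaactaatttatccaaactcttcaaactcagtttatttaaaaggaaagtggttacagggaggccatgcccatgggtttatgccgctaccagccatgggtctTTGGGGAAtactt
C8a, chr4:104876349-104876648, minus strand: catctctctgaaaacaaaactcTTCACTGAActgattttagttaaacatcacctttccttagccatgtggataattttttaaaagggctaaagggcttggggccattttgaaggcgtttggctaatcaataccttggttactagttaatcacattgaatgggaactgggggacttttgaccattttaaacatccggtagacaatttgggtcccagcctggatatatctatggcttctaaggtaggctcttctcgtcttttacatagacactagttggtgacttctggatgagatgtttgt
C9, chr15:6445096-6445395, plus strand: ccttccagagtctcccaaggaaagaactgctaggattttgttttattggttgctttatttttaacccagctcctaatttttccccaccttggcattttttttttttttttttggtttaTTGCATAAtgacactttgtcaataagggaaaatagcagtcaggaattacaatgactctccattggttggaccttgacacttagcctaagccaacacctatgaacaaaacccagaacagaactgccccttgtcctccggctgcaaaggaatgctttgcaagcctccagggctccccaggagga
C3, chr17:57228087-57228386, minus strand: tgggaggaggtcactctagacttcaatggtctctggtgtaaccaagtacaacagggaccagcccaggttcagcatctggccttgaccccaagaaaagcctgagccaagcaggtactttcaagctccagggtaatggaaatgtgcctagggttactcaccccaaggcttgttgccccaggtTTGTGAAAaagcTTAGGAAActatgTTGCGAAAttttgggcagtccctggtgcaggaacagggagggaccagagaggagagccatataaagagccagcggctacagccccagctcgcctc
The C3 promoter holds 3 C/EBP matches, whose first bases are at -70, -58 and -45 relative to the gene start. A C/EBP match was found in 4 of the 6 terminal genes (Hc, C6, C8b and C9) and in 10 of the 22 promoters, and 40.7% of 32544 mouse promoters of the same length hold one. The capitals in C8a are a STAT match, found in 4 of the 22 and in 8.33% of all promoters. The longer run of capitals in Hc is an HNF1 match, shared with C4bp alone among the 22 and held by 1.37% of all promoters. The ISRE core was found in Cd59a and Vtn (3.45% of all promoters), HNF4 in C1s and C8g (1.99%) and the NF-kB consensus in C1qc (8.49%). These matches describe letters in a window and are no evidence of binding.

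Across the 30 genes, the early change was small and the late change was mostly a fall. At WT LPS 6 h, 3 genes rose (C1r, Cfb and Cd55) and 1 fell (Cd59a) relative to WT saline, against 12.5% and 16.1% of all genes. That count of 4 was 1 without WT LPS 6 h replicate 2 or 3 and 2 without replicate 1 or 4. At KO LPS 6 h limma called none of the 30, against 2.6% of all genes. An unadjusted p under 0.05 was seen in 4 of the 30 and in 4117 of all 19204 genes. Without the 2 libraries it called 8 of the 30 higher and 1 lower, against 2455 higher and 3141 lower of all 19204 genes. Leaving out either of the 2 alone gave 4 calls. By WT LPS 20 h, 15 of 30 had fallen and 1 had risen relative to WT saline, against 20.2% and 16.3% of all genes, with a median log2 change of -0.67 over the 30 and -0.03 over all genes. By KO LPS 20 h, 10 had fallen and 3 had risen relative to KO saline, against 14.6% and 11.7% of all genes, with medians of -0.48 and -0.09. Without the 3 libraries these counts were 13 and 6, against 4245 lower and 3653 higher of all 19204 genes. The 13 calls in KO became 7 without KO saline replicate 6 or KO LPS 20 h replicate 5 and 8 without KO LPS 20 h replicate 1 or 2, and a fit on the KO groups alone called 3 (C8a, C8g and Cd59a). Both times of a genotype are set against the same saline arrays.

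Between the LPS times, 16 of 30 were lower at WT LPS 20 h than at WT LPS 6 h and none was higher, against 17.3% and 17% of all genes. The median difference was -0.83 over the 30 genes and -0.09 over all genes. Quantile normalization or slide as a block gave 8 calls there in place of 16. In knockouts 8 of 30 were lower at LPS 20 h than at LPS 6 h and none was higher, against 8.27% and 7.31% of all genes. Without the 3 libraries 13 were lower, against 2514 of all 19204 genes, and a fit on these KO groups alone called none. The levels at KO LPS 20 h overlapped those on KO saline in all 30 genes, where 26.3% of all genes were called in either direction and 3.86% had groups that did not overlap. Without the 3 libraries 7 of the 30 did not overlap (C1qa, C1qc, C2, Cfb, Cd59a, Clu and Vtn), against 28% of all genes. The levels at WT LPS 20 h did not overlap those on WT saline in 10 of the 30, where 36.5% of all genes were called and 22.2% did not overlap.

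**Figure D1:**
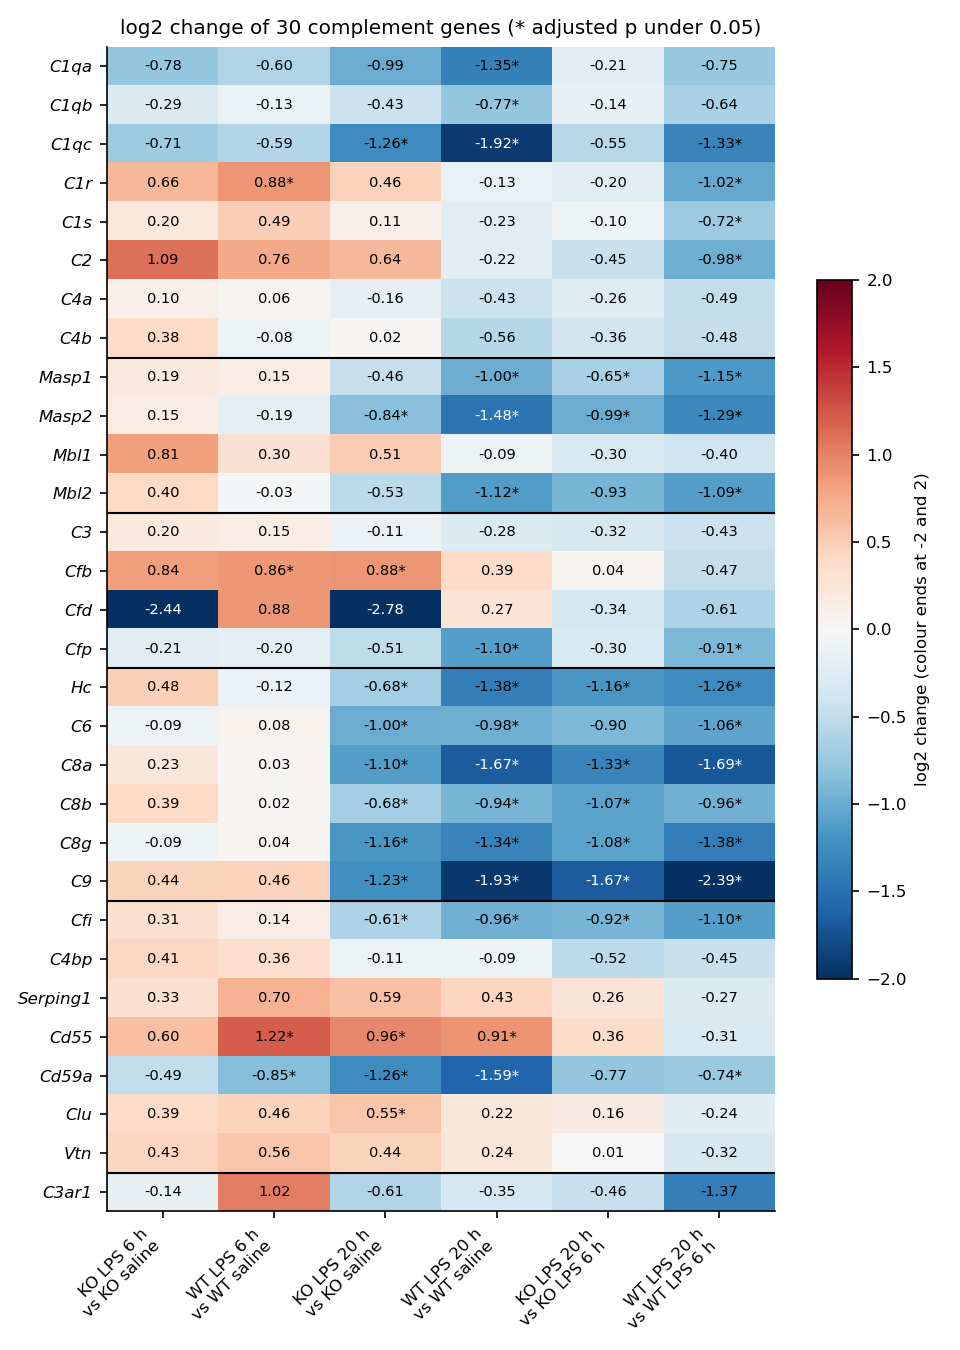
Heat map of the log2 change of 30 complement genes (rows, grouped by role) in 6 comparisons of LPS with saline or of LPS 20 h with LPS 6 h, KO left of WT, with colour ending at -2 and 2 and a star for an adjusted p under 0.05. The terminal genes are starred in both 20 h against saline columns and in neither 6 h column, and C6 lacks a star for KO LPS 20 h against KO LPS 6 h.

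The terminal genes, whose products form the membrane attack complex, fell as a group at 20 h of LPS and not at 6 h. All 6 (Hc, C6, C8a, C8b, C8g and C9) were lower at WT LPS 20 h than on WT saline, with a median log2 change of -1.36, and all 6 were lower at KO LPS 20 h than on KO saline, with a median of -1.05. The shares of all genes that were lower there were 20.2% in WT and 14.6% in KO. At 6 h none of the 6 passed in either genotype, none had an unadjusted p under 0.05, and the medians were 0.03 in WT and 0.31 in KO. From LPS 6 h to LPS 20 h 5 fell in KO and all 6 fell in WT, though a fit on the KO groups alone ended the 5 calls, and in WT quantile normalization ended those of C6 and C8b, the first of which ended under 6 of 13 alternatives. C6 was the exception there (log2 -0.90 ± 0.39, adjusted p = 0.114), and it passed without the 3 libraries (adjusted p = 0.0451). In KO the calls of Hc, C6, C8b and C9 against saline each ended without replicate 1, 2 or 5 of KO LPS 20 h or replicate 6 of KO saline, with adjusted p-values of up to 0.0818, 0.0941, 0.0893 and 0.0801 over all 1-array omissions, while C8a and C8g passed without any 1 array. In WT only the call of C6 ended in this way, without WT saline replicate 3 or 6 or WT LPS 20 h replicate 1 or 2 (adjusted p up to 0.0714).

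C9, which polymerises into the pore of the complex, had 0.53, 1.27, 1.29, 1.72, 1.91 and 3.38 on the KO LPS 20 h arrays, against 1.60 to 4.00 (median 2.94) on KO saline. At WT LPS 20 h it had 0.55, 0.95, 1.31, 1.39, 1.52 and 1.78, against 2.56 to 4.40 (median 3.09) on WT saline. The WT groups did not overlap, while in KO the arrays at 1.72, 1.91 and 3.38 lay inside the saline range. C9 was 2.34-fold lower at KO LPS 20 h than on KO saline (log2 -1.23 ± 0.41, adjusted p = 0.026) and 3.80-fold lower at WT LPS 20 h than on WT saline (log2 -1.93 ± 0.41, adjusted p = 0.000508). At 6 h its levels were 2.27, 4.53, 3.37 and 3.24 in KO and 4.10, 3.68, 3.50 and 3.28 in WT, where the lowest belonged to the KO library that stood apart. Neither 6 h change passed (log2 0.44 ± 0.46 in KO and 0.46 ± 0.46 in WT), and the step from 6 h to 20 h in WT was -2.39 ± 0.46 (adjusted p = 0.000171).

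C8a, the alpha chain of the component that anchors the complex in the membrane, had 4.15, 4.22, 4.68, 4.72, 5.35 and 6.24 at KO LPS 20 h, against 5.61 to 6.20 (median 6.03) on KO saline. Its levels at WT LPS 20 h were 4.32, 4.35, 4.38, 4.45, 4.47 and 5.15, against 6.04 to 6.31 (median 6.20) on WT saline. All WT arrays at 20 h lay below all WT saline arrays, and in KO 5 of the 6 did. The log2 change of C8a was -1.097 ± 0.24 at KO LPS 20 h (adjusted p = 0.00123) and -1.67 ± 0.24 at WT LPS 20 h (adjusted p = 4.5e-06). At 6 h it had 5.82, 6.44, 6.40 and 6.21 in KO and 6.00, 6.13, 6.30 and 6.42 in WT, and neither change passed (log2 0.23 ± 0.27 in KO and 0.03 ± 0.27 in WT).

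C8b and C8g encode the other chains of C8, and C8b lies beside C8a, their probes within 11.5 kb of chromosome 4 (mm9). C8b was at 3.54 to 4.54 (median 3.80) at KO LPS 20 h, against 4.22 to 5.13 (median 4.64) on KO saline. In WT it was at 3.83 to 4.89 (median 4.42) at 20 h, against 4.44 to 5.84 (median 5.41) on saline. Both pairs overlapped, and the log2 changes were -0.68 ± 0.24 in KO (adjusted p = 0.0343) and -0.94 ± 0.24 in WT (adjusted p = 0.00282). C8g was at 4.66 to 6.35 (median 5.22) at KO LPS 20 h, against 6.21 to 6.67 (median 6.53) on KO saline. It was at 4.89 to 5.55 (median 5.30) at WT LPS 20 h, against 6.22 to 6.87 (median 6.54) on WT saline. Only 1 KO array at 20 h reached the saline levels, and none did in WT. The log2 changes of C8g were -1.16 ± 0.20 in KO (adjusted p = 9.81e-05) and -1.34 ± 0.20 in WT (adjusted p = 6.59e-06).

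Hc, whose product C5 starts the terminal steps when it is cleaved, had 6.41, 6.69, 6.89, 6.99, 7.56 and 7.89 at KO LPS 20 h, against 7.28 to 8.07 (median 7.87) on KO saline. At WT LPS 20 h it had 6.17, 6.50, 6.54, 6.55, 6.64 and 7.15, against 7.26 to 8.26 (median 8.06) on WT saline. The WT groups did not overlap and the KO groups did. The log2 change of Hc was -0.68 ± 0.23 in KO (adjusted p = 0.0272) and -1.38 ± 0.23 in WT (adjusted p = 3.17e-05). C6, which binds to C5b, was at 2.52 to 5.08 (median 3.42) at KO LPS 20 h, against 3.56 to 5.11 (median 4.59) on KO saline. It was at 2.56 to 3.71 (median 3.36) at WT LPS 20 h, against 3.69 to 4.95 (median 4.13) on WT saline. The log2 changes of C6 were -0.997 ± 0.35 in KO (adjusted p = 0.0322) and -0.98 ± 0.35 in WT (adjusted p = 0.0261).

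Within the KO LPS 20 h group the terminal genes covered a wider range of levels than in the WT LPS 20 h group, through replicates 4 and 6. The median deviation of the 6 genes from their WT saline means ran from -1.84 to -0.01 (median -1.42) over the KO LPS 20 h arrays and from -1.63 to -0.91 (median -1.44) over the WT LPS 20 h arrays. Replicate 4, a library that stood apart, was at -0.81, and the KO arrays other than replicates 4 and 6 lay between -1.84 and -1.36. The array at -0.01 was replicate 6, which was not among the libraries that stood apart. On this array C8a was at 6.24, C8g at 6.35, C9 at 3.38 and C6 at 5.08, the highest of the group for each. The hepatocyte markers summed to 4003 on it, against 1821 to 2454 on the other KO LPS 20 h arrays. Over the groups that sum was 1821 to 4003 at KO LPS 20 h against 2252 to 4742 on KO saline, and 1525 to 2505 at WT LPS 20 h against 2235 to 3305 on WT saline. Of the 9 markers, 4 fell in KO and 5 fell and 1 rose in WT. The shares of all genes that fell were 14.6% in KO and 20.2% in WT, and 16.3% rose in WT. The part of these markers in the fall of the terminal genes was not tested.

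**Figure D2:**
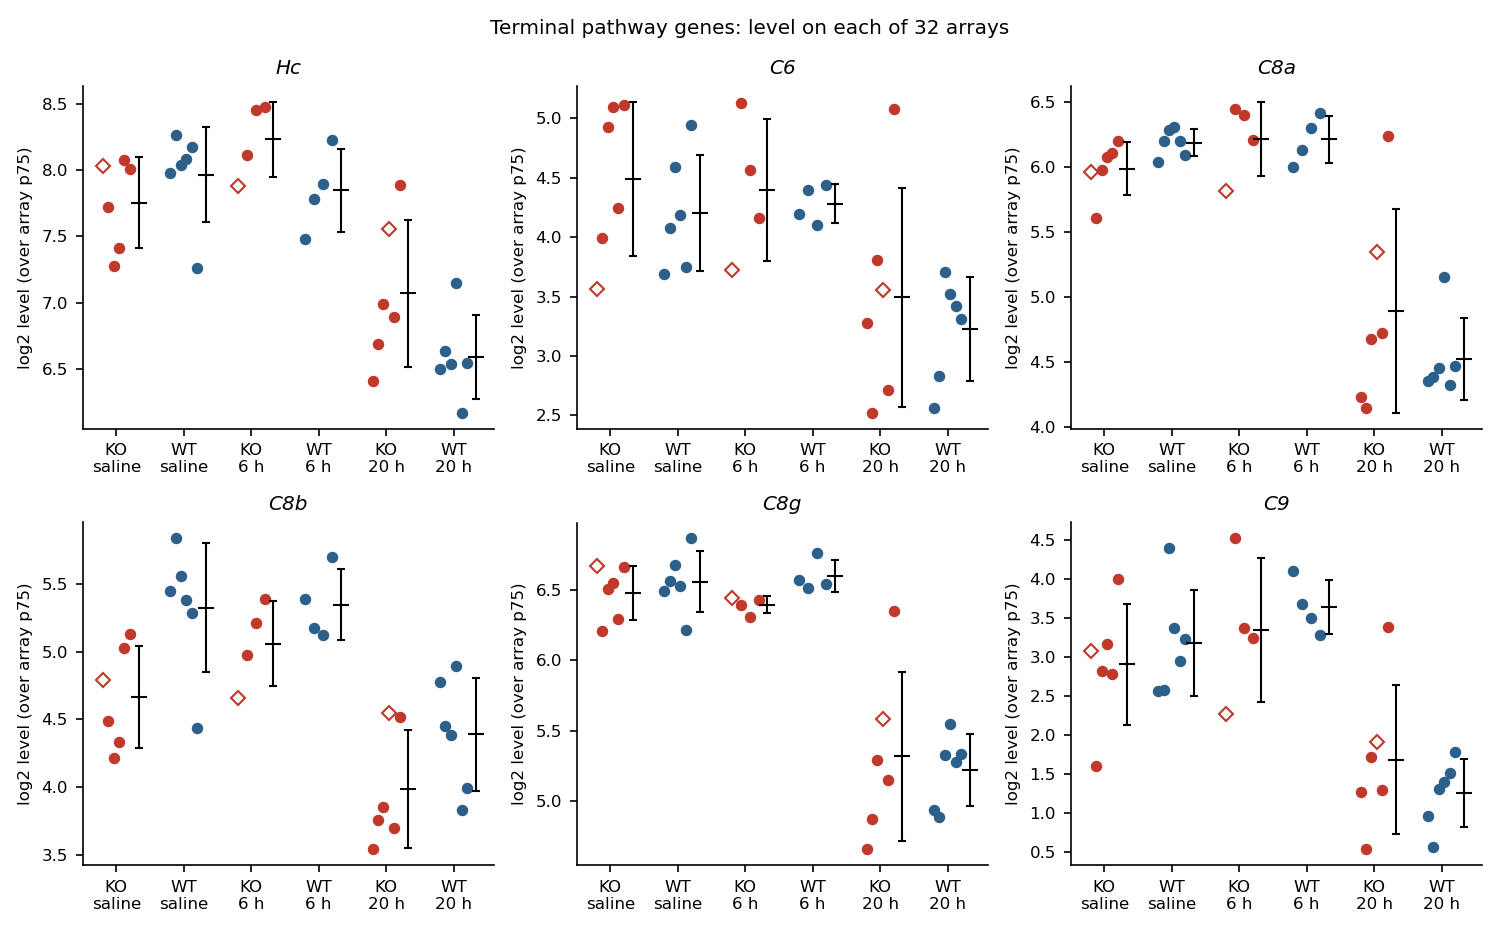
Level of the 6 terminal genes on each of 32 arrays (log2 over the 75th percentile of the array, KO left of WT at each time), with group means and SD bars and open diamonds for the 3 knockout libraries that stood apart. The group means of all 6 genes lie below saline at 20 h, and replicate 6 of KO LPS 20 h is the highest point of its group for C8a, C8g, C9 and C6.

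Of the lectin pathway genes, Masp1, Masp2 and Mbl2 fell at WT LPS 20 h and the change of Mbl1 did not pass. The fall of Masp1 depended on the probe, as given below. At WT LPS 20 h 3 of the 4 genes were lower than on WT saline (Masp1, Masp2 and Mbl2) with a median log2 change of -1.06 over the 4, and at KO LPS 20 h 1 was (Masp2, median -0.50). Over all genes 20.2% were lower in WT and 14.6% in KO. Masp2, the protease that cleaves C4 and C2 for this pathway, had 3.57, 4.26, 4.28, 4.74, 5.01 and 5.28 at KO LPS 20 h, against 4.999 to 5.62 (median 5.48) on KO saline. At WT LPS 20 h it had 3.58, 3.79, 3.84, 3.98, 4.07 and 4.14, against 5.11 to 5.84 (median 5.33) on WT saline. The WT groups were far apart and the KO groups overlapped in 2 arrays. Masp2 fell by 0.84 ± 0.22 in KO (log2, adjusted p = 0.005) and by 1.48 ± 0.22 in WT (adjusted p = 6.24e-06), and its other probes had changes of -0.89 and -0.49 in KO and -1.45 and -0.74 in WT.

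Mbl1 and Mbl2 encode the mannose-binding lectins A and C. Mbl2 was at 4.80 to 6.85 (median 6.01) at KO LPS 20 h, against 6.04 to 6.87 (median 6.47) on KO saline, a log2 change of -0.53 ± 0.39 that did not pass (adjusted p = 0.326). It was at 5.37 to 7.52 (median 6.22) at WT LPS 20 h, against 6.57 to 8.06 (median 7.37) on WT saline, a fall of 1.12 ± 0.39 (adjusted p = 0.0232) with overlapping groups. That call ended without WT saline replicate 1 or 2 or WT LPS 20 h replicate 1 or 6 (adjusted p up to 0.0656). Mbl1 was at 4.62 to 5.36 (median 4.98) at KO LPS 20 h, against 3.66 to 5.48 (median 4.39) on KO saline, and at 4.23 to 4.87 (median 4.61) at WT LPS 20 h, against 4.13 to 5.03 (median 4.74) on WT saline. Neither change of Mbl1 passed (log2 0.51 ± 0.27 in KO, adjusted p = 0.17, and -0.09 ± 0.27 in WT). At 6 h Mbl1 had 4.16, 5.54, 5.78 and 5.61 in KO and 4.56, 4.80, 4.81 and 5.70 in WT. The lowest of these was the KO library that stood apart, and without the 2 libraries Mbl1 was higher at KO LPS 6 h than on KO saline (log2 1.39 ± 0.27, adjusted p = 0.000199).

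Masp1, which encodes MASP-1, MASP-3 and a shorter form from 1 gene, was read by 4 probes along 30.2 kb of chromosome 16 (mm9, minus strand) that did not change alike. The 4 probe sequences, all on the minus strand, are shown because the result depends on which of them is used.
Masp1 D16492, chr16:23449609-23449668: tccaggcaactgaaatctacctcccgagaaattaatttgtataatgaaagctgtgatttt
Masp1 NM_008555, chr16:23452460-23452519: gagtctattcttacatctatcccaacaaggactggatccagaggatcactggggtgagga
Masp1 AK031598, chr16:23468544-23468603: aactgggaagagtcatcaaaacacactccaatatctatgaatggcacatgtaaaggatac
Masp1 AK043055, chr16:23479833-23479892: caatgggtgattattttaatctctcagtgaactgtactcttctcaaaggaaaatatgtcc
The brightest of these, D16492, stood for the gene and was at 3.26 to 4.28 (median 3.82) at KO LPS 20 h, against 3.59 to 4.51 (median 4.33) on KO saline. It was at 3.23 to 4.27 (median 3.53) at WT LPS 20 h, against 4.48 to 4.76 (median 4.55) on WT saline, without overlap. Its log2 change was -0.46 ± 0.19 in KO (adjusted p = 0.0724, or 0.00598 without the 3 libraries) and -0.999 ± 0.19 in WT (adjusted p = 0.000153). The AK043055 probe, the one farthest upstream on the minus strand, moved the other way. It was at -5.16 to -2.80 (median -3.38) at KO LPS 20 h, against -6.11 to -4.56 (median -5.43) on KO saline, and at -3.86 to -2.98 (median -3.39) at WT LPS 20 h, against -6.36 to -4.21 (median -5.32) on WT saline. In WT its arrays did not overlap and its change was 1.95 ± 0.38 (limma, adjusted p = 0.00031 over all probes), and in KO 1.84 ± 0.38 (adjusted p = 0.0011). This probe was dim and stood well above background on 17 arrays, among them 5 of 6 at KO LPS 20 h against 2 of 6 on KO saline, 6 of 6 at WT LPS 20 h against 3 of 6 on WT saline, and none of 4 at KO LPS 6 h. The sizes of its changes from saline are therefore uncertain. The level at KO LPS 20 h was at least 1.86-fold that at KO LPS 6 h, a bound set by the lowest signal well above background. The NM_008555 probe changed by -0.06 ± 0.20 in KO and -0.38 ± 0.20 in WT at 20 h, neither of which passed. The AK031598 probe fell at WT LPS 6 h (log2 -0.92 ± 0.24, adjusted p = 0.00637) and was near its WT saline level at WT LPS 20 h (log2 -0.10 ± 0.21). With the mean over the 4 probes the change of the gene at WT LPS 20 h turned to 0.12 (adjusted p = 0.57). Which transcripts each probe reads was not analysed here.

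Among the alternative pathway genes Cfb rose at WT LPS 6 h, and the bright probe of C3 passed in no comparison. Cfb encodes factor B, the protease of the alternative C3 convertase. At KO LPS 6 h it had 7.73, 8.88, 9.18 and 9.25, against 7.46, 7.53, 7.73, 7.79, 7.80 and 9.20 on KO saline. At WT LPS 6 h it had 8.51, 8.68, 8.82 and 9.01, against 7.73 to 8.16 (median 7.86) on WT saline. In WT the groups did not overlap, and in KO they overlapped through the pair of libraries that stood apart, at 7.73 and 9.20. Cfb rose 1.81-fold at WT LPS 6 h (log2 0.86 ± 0.28, adjusted p = 0.0219), a call that ended without WT LPS 6 h replicate 3 or 4 (adjusted p up to 0.0651). Its change at KO LPS 6 h did not pass over all arrays (log2 0.84 ± 0.28, adjusted p = 0.0829) and was 1.44 ± 0.20 without the 2 libraries (adjusted p = 3.4e-06).

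At 20 h Cfb was at 8.59 to 9.07 (median 8.78) in KO and at 7.82 to 8.72 (median 8.25) in WT. It was higher than on KO saline (log2 0.88 ± 0.25, adjusted p = 0.0101), and the change from WT saline did not pass (log2 0.39 ± 0.25, adjusted p = 0.236). The difference between KO and WT at LPS 20 h was 0.52 ± 0.25 and did not pass either (adjusted p = 0.659). Cfp, properdin, which stabilises the same convertase, fell at WT LPS 20 h (log2 -1.101 ± 0.29, adjusted p = 0.00332). It was at 0.77 to 2.37 (median 1.72) there, against 2.47 to 2.99 (median 2.78) on WT saline, without overlap. In KO Cfp was at 0.91 to 3.47 (median 2.14) at LPS 20 h, against 2.14 to 2.90 (median 2.76) on saline, and its change did not pass (log2 -0.51 ± 0.29, adjusted p = 0.198).

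C3, the centre of the cascade, was read by probes 21.1 kb apart on chromosome 17 (mm9, minus strand), shown here because they disagree.
C3 bright probe, chr17:57343416-57343475: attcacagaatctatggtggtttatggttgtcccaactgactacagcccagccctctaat
C3 dim probe, chr17:57364538-57364695: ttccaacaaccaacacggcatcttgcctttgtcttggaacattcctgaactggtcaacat
The bright probe reached the ceiling of the scanner on its strongest array. It was at 9.47 to 10.40 (median 9.85) at KO LPS 20 h, against 9.56 to 10.96 (median 9.83) on KO saline, and at 9.03 to 10.03 (median 9.66) at WT LPS 20 h, against 9.36 to 10.41 (median 9.91) on WT saline. None of its changes from saline passed (log2 -0.11 in KO and -0.28 in WT at 20 h, 0.20 in KO and 0.15 in WT at 6 h). The dim probe never passed 1.25% of the ceiling and was well above background on all 32 arrays. It was at 2.41 to 3.18 (median 2.89) at KO LPS 20 h, against 1.21 to 2.21 (median 1.37) on KO saline, and at 1.95 to 2.60 (median 2.50) at WT LPS 20 h, against 1.11 to 1.72 (median 1.48) on WT saline. Neither pair overlapped. This probe rose by 1.33 ± 0.27 in KO (limma, adjusted p = 0.00111 over all probes) and by 0.95 ± 0.27 in WT (adjusted p = 0.0116). At 6 h it had 0.84, 2.99, 3.05 and 2.95 in KO and 2.10, 2.14, 2.44 and 2.21 in WT, with log2 changes of 0.90 ± 0.31 and 0.76 ± 0.31 that did not pass (adjusted p = 0.135 and adjusted p = 0.0938). Whether the ceiling compressed the bright probe was not tested.

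**Figure D3:**
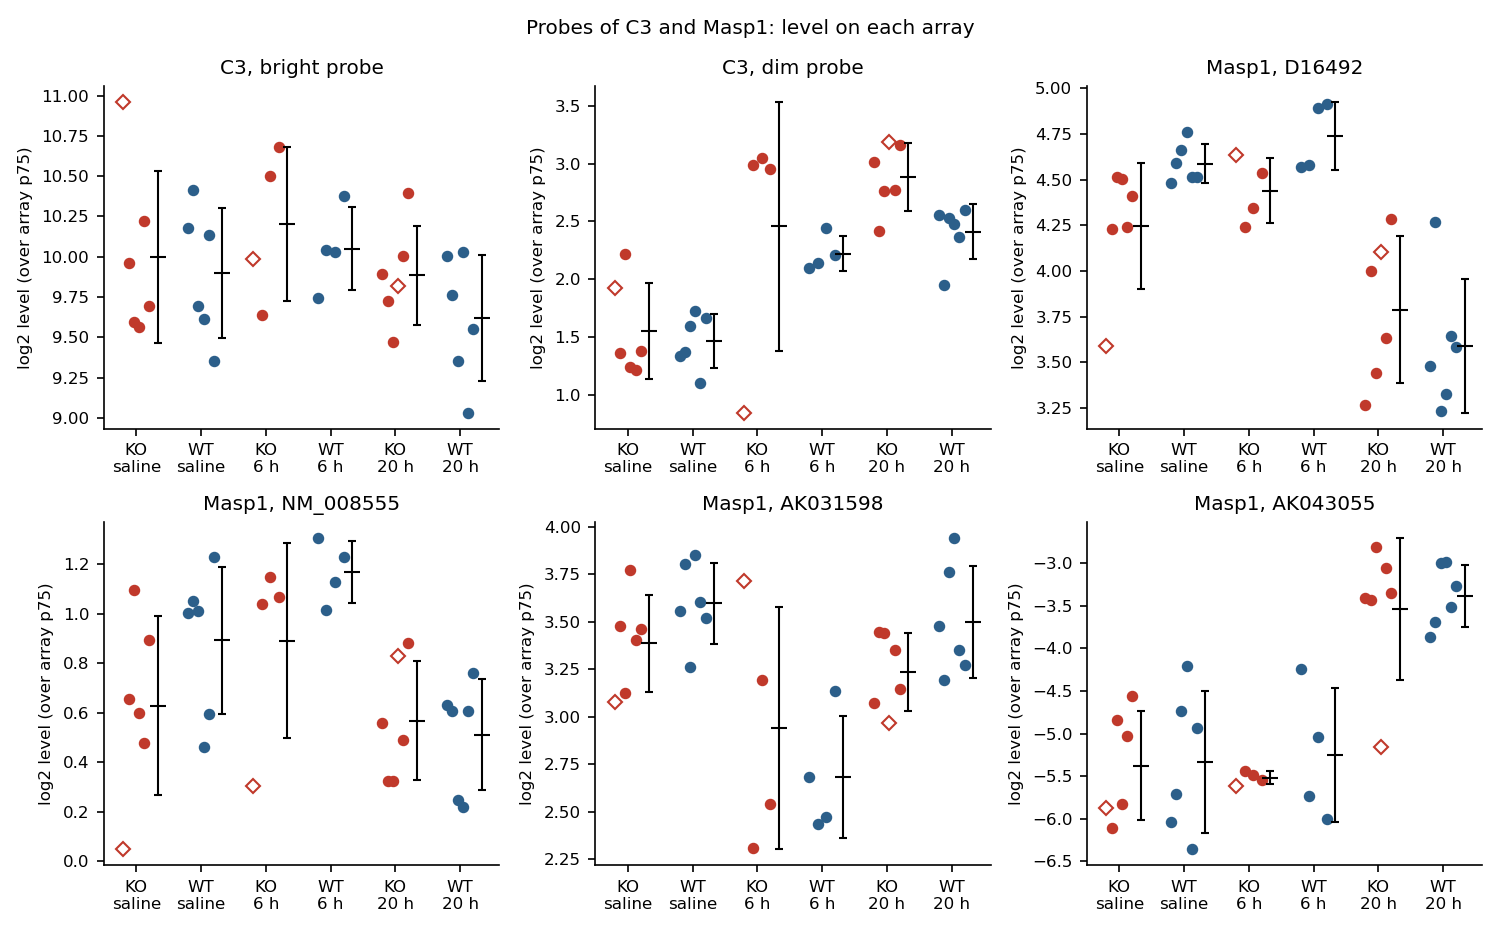
Level of the probes of C3 and Masp1 on each of 32 arrays (log2 over the 75th percentile of the array, KO left of WT at each time, group means with SD bars, open diamonds for the 3 libraries that stood apart). The dim C3 probe lies above its saline arrays at 20 h while the bright one overlaps them, and the Masp1 probes D16492 and AK043055 move in opposite directions at 20 h.

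Cfd, factor D, which activates factor B and is best known from fat cells, was dim and varied widely. Its level on KO saline replicate 5 was 4.81, against -7.23 to 0.43 (median -3.98) on the other 31 arrays. Adipoq, an adipocyte hormone, was at 1.72 on that array, against -8.38 to -2.53 on the others. Of the other adipocyte markers, Retn (-1.21, others -7.86 to -3.10) and Cidea (3.03, others -5.42 to 2.01) were also highest there. Cidec (2.57, others -1.52 to 7.12) and Car3 (7.39, others 1.55 to 8.63) lay inside the range of the other arrays. Cfd passed in no comparison (log2 -2.78 ± 1.25 for KO LPS 20 h against KO saline, adjusted p = 0.0999). The part of fat in that array was not tested.

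The classical genes followed more than 1 course. The 3 chains of C1q fell at WT LPS 20 h, as did most markers of Kupffer cells. Over all arrays no change of C1r, C1s, C2, C4a or C4b from saline passed at that time. Of the 8 classical genes 3 fell at WT LPS 20 h and 1 at KO LPS 20 h, with medians of -0.50 and -0.07. Over all genes 20.2% fell in WT and 14.6% in KO. Without the 2 or the 3 libraries that stood apart 4 of the 8 fell at WT LPS 20 h, so not the C1q chains alone. At KO LPS 20 h 2 then fell and 1 rose. Of all 19204 genes, 4463 fell at WT LPS 20 h without the 3 libraries, and 4245 fell and 3653 rose at KO LPS 20 h. The C1q genes are neighbours, with probes inside 15.9 kb of chromosome 4, and C2, Cfb, C4a and C4b lie within 133 kb of chromosome 17 (mm9).

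C1qc, the C chain, had -0.03, 1.55, 1.76, 1.88, 2.48 and 3.65 at KO LPS 20 h, against 2.51 to 3.46 (median 3.35) on KO saline. At WT LPS 20 h it had 0.14, 0.28, 1.05, 1.14, 2.06 and 2.24, against 2.76 to 3.38 (median 3.09) on WT saline. The WT groups did not overlap, and in KO 1 array at 20 h, the library labelled replicate 4 that stood apart, lay above all saline arrays. C1qc fell by 1.26 ± 0.40 at KO LPS 20 h (log2, adjusted p = 0.0187) and by 1.92 ± 0.40 at WT LPS 20 h (adjusted p = 0.000385). Its call in KO ended without KO LPS 20 h replicate 1 (log2 -0.88, adjusted p = 0.0679). C1qa fell by 1.35 ± 0.38 in WT (adjusted p = 0.0061), and its change in KO was -0.99 ± 0.38 (adjusted p = 0.0532, or 0.00234 without the 3 libraries). C1qb fell by 0.77 ± 0.29 in WT (adjusted p = 0.0365), a call that ended for 7 of the 12 arrays left out singly, with the highest adjusted p of 0.117 without WT LPS 20 h replicate 1. Its change in KO was -0.43 ± 0.29 (adjusted p = 0.286).

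Markers of Kupffer cells moved with C1q. Their summed level was 29.2 to 249 (median 74.8) at KO LPS 20 h, against 58.2 to 99.7 (median 88.2) on KO saline, and 17.5 to 63.8 (median 32.9) at WT LPS 20 h, against 73.3 to 98.0 (median 83.5) on WT saline. Of 10 markers tested, 7 fell and 1 rose at KO LPS 20 h and 8 fell and 1 rose at WT LPS 20 h. The shares of all genes that fell and rose were 14.6% and 11.7% in KO and 20.2% and 16.3% in WT. No marker was below background throughout a group. The array at 249 was KO LPS 20 h replicate 4, the same on which C1qa (2.78) and C1qc (3.65) were highest. In whole liver, fewer cells of a type and less RNA per cell cannot be told apart, and the part of Kupffer cells in the fall of C1q was not tested.

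C1r, a protease of the first complex, rose at WT LPS 6 h, where it had 6.34, 6.49, 6.03 and 6.60, against 4.84 to 5.89 (median 5.54) on WT saline. These groups did not overlap, and the log2 change was 0.88 ± 0.32 (adjusted p = 0.0371). This call ended without WT saline replicate 3, 4 or 6 or WT LPS 6 h replicate 1, 2 or 4 (adjusted p up to 0.0914). In KO it had 5.71, 5.77, 6.57 and 6.49 at LPS 6 h, against 4.96 to 6.45 (median 5.40) on saline, a change of 0.66 ± 0.32 that passed without the 2 libraries (1.00 ± 0.33, adjusted p = 0.023). C1r and C1s, its partner protease, have probes within 7.84 kb of chromosome 6 (mm9) and were lower at WT LPS 20 h than at WT LPS 6 h (log2 -1.02 ± 0.32 and -0.72 ± 0.23, adjusted p = 0.0139 and 0.0149), but not under quantile normalization (-0.41 and -0.19, adjusted p = 0.186 and 0.602). The same step in KO was -0.20 ± 0.32 for C1r and -0.10 ± 0.23 for C1s, and neither passed.

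C2, the protease of the classical and lectin C3 convertase, had 5.99, 6.77, 7.62 and 7.49 at KO LPS 6 h, against 4.87 to 7.07 (median 5.88) on KO saline. It had 6.63, 7.09, 6.70 and 7.18 at WT LPS 6 h, against 5.50 to 6.67 (median 6.14) on WT saline. Neither change passed over all arrays (log2 1.09 ± 0.34, adjusted p = 0.0685, in KO and 0.76 ± 0.34, adjusted p = 0.0997, in WT). Without the 2 libraries both did (1.66 ± 0.32, adjusted p = 0.000211, in KO and 0.76 ± 0.28, adjusted p = 0.039, in WT). C4b, which encodes C4, was not called at any time over all arrays, with log2 changes of 0.02 in KO and -0.56 in WT at 20 h. C4a and C4b are near-identical copies, and whether their probes tell the 2 genes apart was not tested. C4a was called in no comparison.

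**Figure D4:**
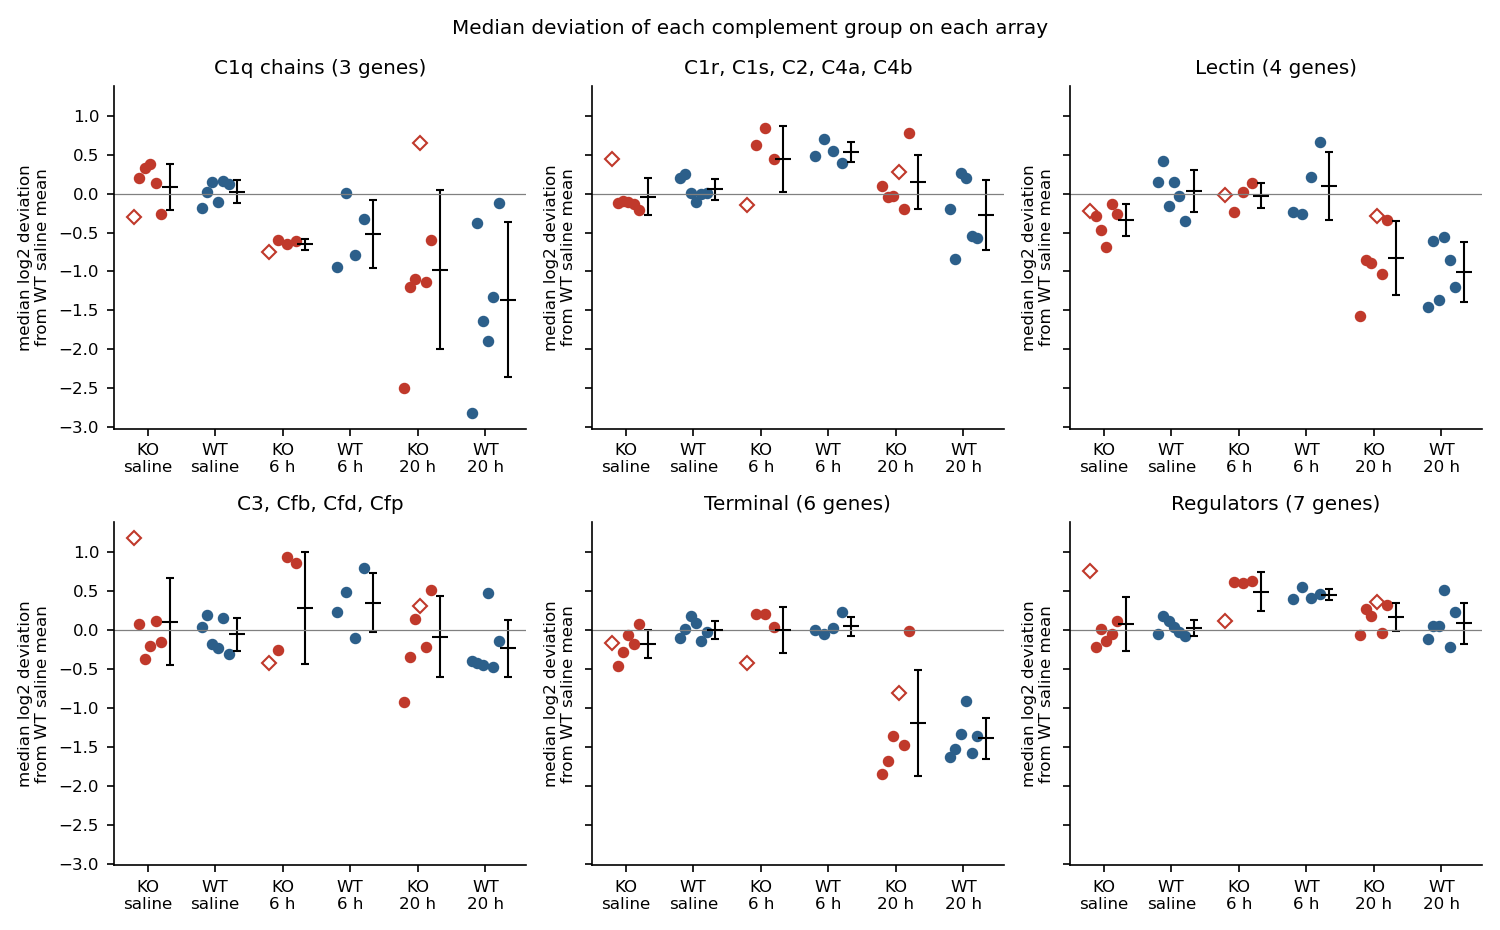
Median log2 deviation of each complement group from its WT saline mean on each of 32 arrays, KO left of WT at each time, with group means, SD bars and open diamonds for the 3 libraries that stood apart. The terminal group lies between -1.84 and -0.01 at KO LPS 20 h and between -1.63 and -0.91 at WT LPS 20 h, and the C1q chains spread from -2.50 to 0.65 and from -2.82 to -0.11.

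The regulators were mixed. At KO LPS 20 h 2 of 7 rose and 2 fell, and at WT LPS 20 h 1 rose and 2 fell, with medians of 0.44 and 0.22. Among all genes 11.7% rose and 14.6% fell in KO and 16.3% rose and 20.2% fell in WT, so these few calls do not set the regulators apart from other genes. Those that fell were Cfi and Cd59a in both genotypes, and Cd55 rose in both.

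Cfi, factor I, the protease that inactivates C3b and C4b, was at 6.08 to 7.47 (median 6.67) at KO LPS 20 h, against 7.06 to 7.68 (median 7.37) on KO saline. It was at 6.30 to 6.84 (median 6.52) at WT LPS 20 h, against 7.21 to 7.68 (median 7.52) on WT saline. Only the WT groups were free of overlap. Cfi fell by 0.61 ± 0.18 in KO (log2, adjusted p = 0.0115) and by 0.96 ± 0.18 in WT (adjusted p = 0.000121). C4bp, which serves as a cofactor of factor I for C4b, changed by -0.11 ± 0.20 in KO and -0.09 ± 0.20 in WT and did not pass.

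Cd59a, the membrane protein that blocks the insertion of C9, fell at both times in WT. At LPS 6 h it had 2.82, 2.18, 1.77 and 1.72 in KO, against 1.64, 2.69, 2.73, 2.78, 2.87 and 2.94 on KO saline. It had 1.86, 1.49, 1.69 and 2.001 at WT LPS 6 h, against 2.27 to 2.86 (median 2.66) on WT saline. The 2.82 and the 1.64 in KO belonged to the libraries that stood apart, and the WT groups did not overlap. Its change at 6 h was -0.49 ± 0.28 in KO (adjusted p = 0.333, or 0.0112 without the 2 libraries) and -0.85 ± 0.28 in WT (adjusted p = 0.0242, ending without WT LPS 6 h replicate 2 or 3 at up to 0.0816). At 20 h Cd59a was at 0.57 to 2.51 (median 1.30) in KO and at 0.75 to 1.26 (median 1.02) in WT, with log2 changes of -1.26 ± 0.25 (adjusted p = 0.000557) and -1.59 ± 0.25 (adjusted p = 1.76e-05). Its second probe had changes of -0.72 ± 0.28 in KO and -0.47 ± 0.28 in WT at 20 h, and neither passed.

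Cd55, decay-accelerating factor, which dismantles C3 convertases on cell surfaces, was at -1.45, -1.39, -0.24, -0.14, -0.06 and 1.29 at KO LPS 20 h, against -1.79 to -0.09 (median -1.47) on KO saline. It was at -1.51 to 0.76 (median -0.43) at WT LPS 20 h, against -1.79 to -1.08 (median -1.36) on WT saline. Both pairs overlapped. The log2 change was 0.96 ± 0.36 in KO (adjusted p = 0.0477) and 0.91 ± 0.36 in WT (adjusted p = 0.0488), and at WT LPS 6 h it was 1.22 ± 0.40 (adjusted p = 0.023). The 20 h calls were close to the threshold and ended without 1 array in 9 of 12 cases in KO (adjusted p up to 0.137) and 9 of 12 in WT (up to 0.144). The 6 h call ended without WT LPS 6 h replicate 1, 2 or 3 (adjusted p up to 0.062). With the mean over its probes, the others being dim, the change turned to -0.08 in KO and -0.09 in WT at 20 h.

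Clusterin (Clu) and vitronectin (Vtn) both bind the forming membrane attack complex in plasma. Clu was at 8.08 to 9.40 (median 8.36) at KO LPS 20 h, against 7.56 to 8.73 (median 7.91) on KO saline, and rose by 0.55 ± 0.20 (log2, adjusted p = 0.0411), a call that ended in 8 of 12 cases of 1 array left out (adjusted p up to 0.14, without replicate 6 of KO LPS 20 h). It was at 7.79 to 8.36 (median 8.08) at WT LPS 20 h, against 7.67 to 8.08 (median 7.83) on WT saline, and its change of 0.22 ± 0.20 did not pass. Vtn did not pass in either genotype at 20 h (0.44 ± 0.22 in KO and 0.24 ± 0.22 in WT), and without the 3 libraries it was higher at KO LPS 20 h (0.69 ± 0.18, adjusted p = 0.00377). Serping1, the C1 inhibitor, had log2 changes of 0.59 ± 0.29 in KO (adjusted p = 0.134) and 0.43 ± 0.29 in WT (adjusted p = 0.248) at 20 h.

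The receptors were near background. C3ar1, the receptor for C3a, was well above background on 1 of 6 KO LPS 20 h arrays, 4 of 6 KO saline arrays, 3 of 6 WT LPS 20 h arrays and 3 of 6 WT saline arrays, and no change passed (log2 -0.61 ± 0.49 in KO and -0.35 ± 0.49 in WT at 20 h). C5ar1 was well above background on 1 KO LPS 20 h array and 1 WT LPS 6 h array and was not tested.

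Other complement genes outside the 31 also changed at 20 h. Of 34 listed, 22 were tested. At KO LPS 20 h 8 fell and 3 rose, with a median log2 change of -0.34, and at WT LPS 20 h 11 fell and 3 rose, with a median of -0.61. Over all genes 14.6% fell and 11.7% rose in KO and 20.2% fell and 16.3% rose in WT, so the share that rose was near that of all genes. The largest falls were those of Vsig4, a C3b receptor of Kupffer cells (log2 -3.91 ± 0.59 in KO and -4.20 ± 0.59 in WT), and of the collectins Colec11 (-3.74 ± 0.44 and -3.82 ± 0.44) and Colec10 (-3.28 ± 0.44 and -2.83 ± 0.44). The largest rises were those of Itgam, a chain of complement receptor 3 (3.87 ± 0.52 in KO and 3.95 ± 0.52 in WT), of Cd93 (3.04 ± 0.37 and 3.33 ± 0.37) and of Itgb2, the partner chain of Itgam (1.35 ± 0.35 and 1.14 ± 0.35). Vsig4 is also on the list of Kupffer markers described above and Colec11 on that of 7 hepatic stellate cell markers, of which 6 fell and 1 rose at KO LPS 20 h and 4 fell and 1 rose at WT LPS 20 h. The stellate markers summed to 52.8 to 113 at KO LPS 20 h against 54.7 to 99.1 on KO saline, and to 66.5 to 138 at WT LPS 20 h against 51.2 to 110 on WT saline. All 8 neutrophil markers tested rose in both genotypes at 20 h, and so did 5 of 7 monocyte markers, a list that holds Itgam. The neutrophil markers summed to 68.5 to 168 at KO LPS 20 h against 1.17 to 325 on KO saline, where the highest was the array labelled replicate 1, and to 53.3 to 132 at WT LPS 20 h against 1.09 to 9.05 on WT saline. The monocyte markers summed to 51.9 to 429 at KO LPS 20 h against 5.14 to 99.3 on KO saline, and to 71.0 to 288 at WT LPS 20 h against 6.01 to 20.7 on WT saline. No marker of these 3 lists was below background on all arrays of a 20 h or saline group, and the part of these cells in the changes was not tested.

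None of the 30 genes passed the test between genotypes. limma called none of them between KO and WT on saline, at LPS 6 h or at LPS 20 h, against 0.333%, 1.23% and 0.323% of all genes. An unadjusted p under 0.05 was seen in 3 of the 30 on saline, 0 at LPS 6 h and 5 at LPS 20 h. Over all 19204 genes it was seen in 1264, 2114 and 1455. The interaction of genotype and LPS was called for none at 6 h or at 20 h, against 0.141% and 0.0417% of all genes. There 0 and 2 (Hc and Masp2) of the 30 had an unadjusted p under 0.05, against 1691 and 1271 of the 19204. At LPS 20 h the difference of KO minus WT was positive in 26 of 30 genes, with a median of 0.35 against 0.00 over all genes, and without the 3 libraries in 23 of 30, with a median of 0.27. The size of this median depended on the scaling. Over all arrays it was 0.17 with quantile normalization, 0.18 with normexp and quantile normalization and 0.42 with median centring. The medians over all genes were then -0.02, -0.01 and 0.07. The genes were read on the same arrays and are not independent. Among the 22 other complement genes 1 passed, Daf2, a second gene for decay-accelerating factor, which was lower at KO LPS 6 h than at WT LPS 6 h (log2 -2.08 ± 0.53, adjusted p = 0.0458) and did not pass without the 2 libraries (adjusted p = 0.0979).

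The smallest p at LPS 20 h was that of Masp2, which was at 3.57 to 5.28 in KO and 3.58 to 4.14 in WT (log2 0.62, 95% interval 0.18 to 1.07, unadjusted p = 0.00799, adjusted p = 0.37). Hc differed by 0.48 (interval 0.01 to 0.95), C1s by 0.45 (0.03 to 0.87) and Clu by 0.44 (0.03 to 0.85). On saline C8b was lower in KO (log2 -0.66, interval -1.15 to -0.17, unadjusted p = 0.00975, adjusted p = 0.451) and so was Mbl2 (-0.90, interval -1.69 to -0.11). None of these passed, and a missed threshold does not show that the genotypes were alike. For C9 at LPS 20 h the interval ran from -0.41 to 1.26 around a difference of 0.43.

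**Figure D5:**
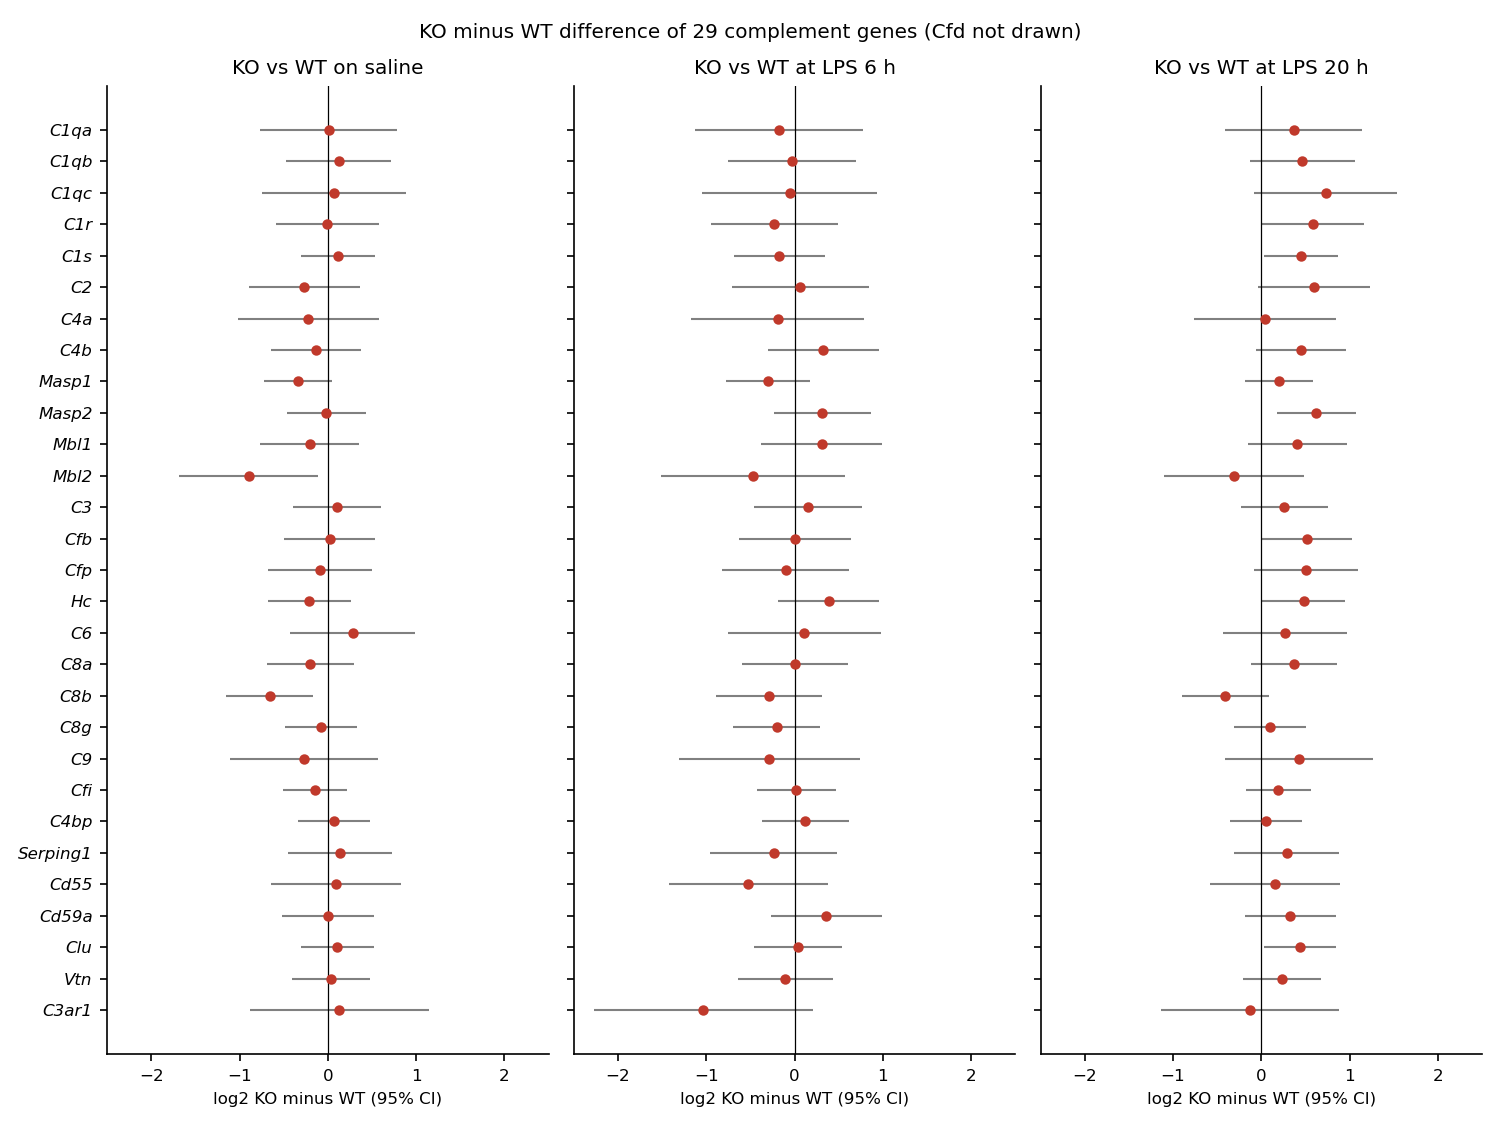
Difference of KO minus WT in 29 complement genes (rows) on saline, at LPS 6 h and at LPS 20 h (panels), on the log2 scale with 95% intervals. Most points at LPS 20 h lie right of 0, and no gene passed an adjusted p of 0.05 in any panel.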

How the data were processed

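RNA from mouse liver was read on 32 Agilent 1-colour arrays, 1 per mouse. The deposited spot intensity values were made with Agilent Feature Extraction 10.7.1.1, per the file headers, which also give the probe positions (mm9) and the processed, background-subtracted signal. Here that signal was taken as log2, minus the 75th percentile of each array, from the deposited files. The authors' deposited processed table of log2 values served as an alternative. How that table was normalized is not given.

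Outlier spots and control spots were left out (361 missing values), and 28345 probes were kept that reached the well-above-background flag on 4 arrays or more. The brightest probe stood for each of 19204 gene names. limma 3.58.1 in R 4.3.3 was fitted over all 6 groups with no covariate, for 11 comparisons, and Benjamini-Hochberg adjusted p-values over all genes were read at 0.05. Tests of single probes came from a fit of all probes, kept or not, and were adjusted over all of them. The fit was tested on simulated data. An SE follows ± with log2 changes. Members and lists were chosen with earlier results of these data known. All members were named by the rule fixed with them, and among other complement genes up to 3 with the largest called change in each direction. The HNF4 letters were set after a first search with another spelling. Nothing in the labels says more of the mice than that each is a separate animal, and the number of arrays limits the precision. Slide (9) and scan date (3) were tried as blocks, and WT saline has no array on the third date. Every called member kept its sign within each scan date that held both groups. Replicate numbers were not taken as pairs. The correlations of same-numbered deviations ran from -0.688 to 0.336. They were not set against those of differently numbered arrays, so they cannot decide whether the numbers pair samples. Other normalizations, probe filters, probe choices, leaving out single arrays and leaving out the libraries that stood apart were also tried.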

Additional observations from a re-analysis of the deposited data

Results flagged for a closer look

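In 179 gene and group combinations of 4 to 10 arrays, 16 had 1 array far from the rest of its group, and chance alone gives about 1 in 20. Of these, 6 were the library labelled KO saline replicate 1, which lay apart for Cfb (9.20, others 7.46 to 7.80), C4bp (8.45, others 7.45 to 7.82), Masp1 (3.59, others 4.23 to 4.51), Cd55 (-0.091, others -1.79 to -1.21), Cd59a (1.64, others 2.69 to 2.94) and Vtn (9.84, others 8.51 to 8.89). Another 3 were the library labelled KO LPS 6 h replicate 1, for C1qb (0.47, others 1.36 to 1.38), Mbl1 (4.16, others 5.54 to 5.78) and Clu (7.83, others 8.46 to 8.58).

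KO LPS 20 h replicate 6 lay above its group for C2 (7.26, others 6.24 to 6.51) and Vtn (10.04, others 9.03 to 9.37). Single arrays also lay apart for Hc (WT saline replicate 6 at 7.26, others 7.98 to 8.26), C8a (WT LPS 20 h replicate 4 at 5.15, others 4.32 to 4.47) and Cfi (KO LPS 6 h replicate 4 at 7.86, others 7.57 to 7.62). At WT LPS 6 h this held for Cd55 (replicate 4 at -0.67, others -0.01 to -0.00) and Vtn (replicate 1 at 9.25, others 9.45 to 9.47).

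C5ar1, outside the tests, reached -1.76 on KO LPS 20 h replicate 6, above the -8.17 to -4.94 of the saline arrays, where it was never well above background.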

How the results depend on the processing

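Of 57 called values of single genes, 5 changed direction under any setting tried, all with the mean over probes. These were Cd55 (-0.088 at WT LPS 20 h and -0.077 at KO LPS 20 h against saline) and Masp1 (0.12 at WT LPS 20 h against WT saline, 0.22 and 0.33 for LPS 20 h against LPS 6 h in WT and KO), whose probes differ. C8a and C8g passed at 20 h against saline in both genotypes under all 13 alternatives and without any 1 array. The cause of the other changes was not tested.

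For WT LPS 6 h against saline the 4 calls became 2 with quantile normalization or scan date as a block, 1 with median centring, slide as a block or the replicate block, 8 in a fit on the groups compared and 6 without the 3 libraries, and 1 to 4 on leaving out single arrays. For KO LPS 6 h against saline the 0 calls became 1 with the mean over probes and 9 without the 2 or the 3 libraries, and 0 to 4 on leaving out single arrays. For KO LPS 20 h against saline the 13 calls became 6 with median centring, 3 in a fit on the groups compared and 19 without the 3 libraries, and 7 to 18 on leaving out single arrays. For WT LPS 20 h against LPS 6 h the 16 calls became 8 with quantile normalization or slide as a block, 9 with median centring and 10 with normexp or the deposited table, and 11 to 15 on leaving out single arrays. In KO the 8 calls became 13 without the 3 libraries and 0 in a fit on the groups compared, and 7 to 9 on leaving out single arrays. For WT LPS 20 h against saline 13 to 16 of 16 calls were made without any 1 array. The comparisons of genotypes and the interactions gave 0 calls under all settings. Without the 3 libraries more of all genes were called as well in each of these comparisons within a genotype.

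The replicate block left 15 calls for WT LPS 20 h and 12 for KO LPS 20 h against saline, and 14 and 9 against LPS 6 h. Replicate numbers were taken only as names here. Scaling moved the median of all genes by over 0.1 in some comparisons (-0.13 with quantile normalization and -0.16 with median centring at WT LPS 6 h, 0.15 with median centring at KO LPS 20 h, 0.18 with quantile normalization for WT LPS 20 h against LPS 6 h). Dim probes (Cfd, C3ar1, C5ar1, Masp1 AK043055) limit what can be read at low signal.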
